A study of Homo sapiens with 4 samples.

Results

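BCR, ABL1 and NUP214 are the partner genes of fusions that K562 cells carry, and ADAR contacts on their RNA were described here from enhanced crosslinking and immunoprecipitation (eCLIP). K562 is an established human line from a chronic myeloid leukaemia, with traits of red cell precursors, and the cells were untreated. An ADAR1 antibody gave 2 immunoprecipitated (IP) libraries, set against 2 input libraries, in replicates numbered 1 and 2. Crosslinking used ultraviolet light (254 nm, 400 mJ/cm2), RNase I shortened the RNA, and the gel region up to 75 kDa above the protein was taken. No label ties the replicates to separate cultures, so the spread between them may be technical. A cluster was counted for a gene where its midpoint lay in the RefSeq GRCh38 span on the gene's strand, which is plus for all 3 genes. This gave 760 of 534161 clusters in replicate 1, 330 of 155848 in replicate 2, and 8 of the 1717 peaks in the authors' combined list, called here the reproducible list.

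ADAR converts adenosine to inosine where RNA is double-stranded, and in human cells much of that RNA lies in introns, where repeats in opposite orientation pair. In chronic myeloid leukaemia a translocation joins the 5′ part of BCR on chromosome 22 to the 3′ part of ABL1 on chromosome 9, and the product is a constitutively active tyrosine kinase. K562 is known for extra copies of this fusion and for a fusion of the 5′ part of NUP214 with XKR3. Junction positions were not used here, so position is described along each gene. Bulk libraries cannot tell RNA of the fused copies from RNA of unfused ones, nor more copies of a gene from more RNA per copy.

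BCR, whose protein has a serine/threonine kinase region and a coiled coil that pairs its fusion product, spans chromosome 22 from 23180509 to 23318037 (138 kb). ABL1, a tyrosine kinase of cytoplasm and nucleus, spans chromosome 9 from 130713043 to 130887675 (175 kb). NUP214, a nucleoporin of the cytoplasmic face of the nuclear pore, spans chromosome 9 from 131125586 to 131234663 (109 kb). Exons were not assigned, because the annotation used here holds gene spans alone. Enriched clusters are those with a log2 fold of IP over input of 3 or more and a −log10 p of 3 or more, both being the authors' values. Each list gives 1 value per cluster, no test across the replicates was made, and all values are descriptions.

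Of the RefSeq promoter windows of the 3 genes, the window of ABL1 alone held enriched clusters, and its bases before the start are shown for that reason. The start it belongs to lies inside the gene span. It is the plus strand of chr9:130835004-130835253 in GRCh38.p14, from RefSeq, and the capitals mark the part covered by the cluster with the highest fold in ABL1.
ABL1: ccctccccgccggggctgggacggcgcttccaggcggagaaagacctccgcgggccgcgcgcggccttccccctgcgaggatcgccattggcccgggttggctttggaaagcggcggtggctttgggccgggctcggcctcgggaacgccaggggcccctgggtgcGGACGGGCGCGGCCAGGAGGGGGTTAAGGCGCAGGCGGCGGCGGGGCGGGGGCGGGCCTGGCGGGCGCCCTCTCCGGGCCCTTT

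In replicate 1 the cluster marked in capitals, which runs past the end of the shown stretch, at chromosome 9 positions 130835170 to 130835269, had a log2 fold of 4.74 from 178 IP reads over 2 input reads. The cluster beside it, from 130835087 to 130835169, had 4.11 from 115 IP reads over 2, and that from 130834985 to 130835069 had 3.24 from 63 over 2. Replicate 2 had no cluster over any part of this window. Of 35114 RefSeq promoter windows, 0.282% were overlapped by an enriched cluster in replicate 1 and 0.0598% in replicate 2. The 250 bases shown are 78.4% G and C against a median of 58.0% over 35116 windows, and the capitals are 83.3%. The motif GGGCGG, searched on both strands, matched at 2 positions, and 42.6% of all windows of this length held it. The promoter windows of BCR and NUP214 had no enriched cluster in either replicate, and their highest log2 folds were 0.59 and 1.15 in replicate 1.

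NUP214 held 7 of the 8 reproducible peaks, BCR held 1 and ABL1 held none. Among genes with a cluster in either replicate, 3.66% had a reproducible peak, and among protein-coding genes of like length (75 kb to 3 times that) with a cluster 7.34% had one. Enriched clusters of replicate 1 numbered 6 of 215 in BCR (2.79%), 5 of 340 in ABL1 (1.47%) and 9 of 205 in NUP214 (4.39%), against a background of 1.39% over all its clusters. In replicate 2 they numbered 4 of 84 in BCR (4.76%), 8 of 174 in ABL1 (4.60%) and 11 of 72 in NUP214 (15.3%), against 12.8%. BCR and ABL1 were thus below the background share in replicate 2, and ABL1 was near it in replicate 1. The NUP214 share of replicate 2 was near the background too: it ranked 407 of 1109 genes of like length with at least 10 clusters, within their quartiles of 6.25% and 18.2%. Its 11 enriched clusters there became 7 without those at 1 input read. They became 4 at a ratio denominator, in lowest terms, of at least 2. That second filter does not measure read support, since it drops a cluster of 150 IP reads over 15 and keeps 1 of 23 over 4. In replicate 1 the shares of NUP214, BCR and ABL1 ranked 80, 146 and 315 of 1562 such genes, whose quartiles were 0% and 1.06%. Merging touching clusters left 5 of the 9 enriched NUP214 clusters of replicate 1. For comparison, of protein-coding genes of like length with a cluster in either replicate, 24.3% had at least 1 enriched cluster in replicate 1 and 51.7% in replicate 2. Over genes of any length with a cluster in the replicate concerned, these shares were 14.9% and 42.7%.

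The reproducible peak of BCR lay near the 5′ end, at chromosome 22 positions 23185931 to 23186030, 5.47 kb into the gene, with a log2 fold of 4.94 and a −log10 p of 15.2. Its cluster had a log2 fold of 4.07 in replicate 1 (168 IP reads over 3 input reads) and 5.78 in replicate 2 (91 IP reads over 3). The value was high in both replicates. Of the 6 enriched BCR clusters of replicate 1, 3 lay in bin 1, 2 in bin 2 and 1 in bin 8, when the gene is divided into 10 equal bins from its 5′ end. The highest was at 23185646 to 23185694, with a log2 fold of 4.57 from 79 IP reads over 1 input read, and replicate 2 had no cluster there. The neighbouring clusters at 23201724 to 23201745 and 23201746 to 23201810 had 4.48 and 3.90 in replicate 1, where replicate 2 had a single cluster at 2.29. The cluster in bin 8, from 23281914 to 23282010, had 3.66 from 42 IP reads over 1 and no counterpart in replicate 2.

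Replicate 2 had 3 more enriched BCR clusters, all in bin 2, at 23194787 to 23194857 (log2 fold 3.71), 23195444 to 23195524 (3.05) and 23200616 to 23200723 (3.82). Each was overlapped by a replicate 1 cluster of lower fold, at 1.17, 0.53 and 0.74. The reads behind the first of these were nearly the same in both, with 29 IP reads over 4 input reads in replicate 2 and 30 over 4 in replicate 1. The IP libraries were 3.33 times as deep as input in replicate 1 and 0.553 times in replicate 2, a ratio of 6.01, so that at equal reads the log2 fold is higher by 2.59 in replicate 2. The BCR clusters next to the fold threshold in replicate 2 were at 3.05 above it and 2.99 below it, and those of replicate 1 at 3.29 and 2.92.

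**Figure D1:**
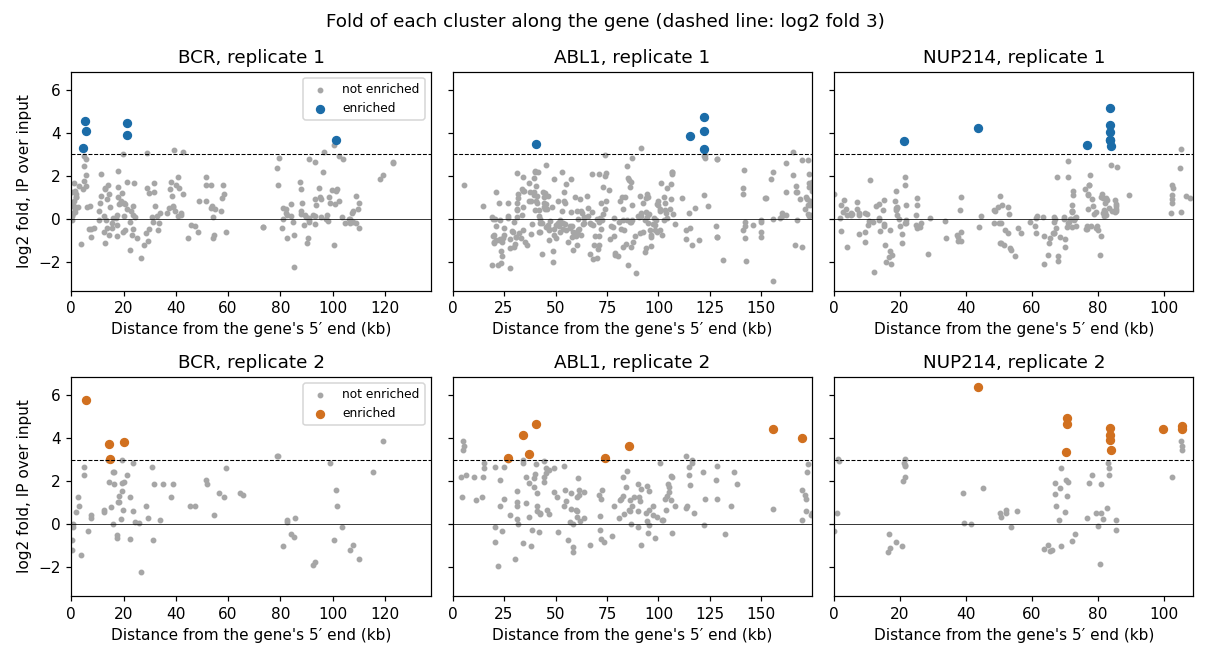
Log2 fold of IP over input (y axis) of each cluster against its distance from the gene's 5′ end in kb (x axis, full gene span), for BCR, ABL1 and NUP214 in replicates 1 and 2. Coloured points are enriched clusters and grey points are the others. BCR has 6 and 4 enriched clusters, ABL1 5 and 8, and NUP214 9 and 11, and the sparse stretches at the 3′ end of BCR and the 5′ end of ABL1 in replicate 1 are visible.

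In ABL1 the enriched clusters of the replicates lay mostly at different places. Of the 5 in replicate 1, 4 were in bin 7, namely the 3 described at the RefSeq start and 1 at 130828485 to 130828526 (log2 fold 3.85, 48 IP reads over 1 input read). Replicate 2 had none in that bin. Its 8 enriched clusters lay in bins 2, 3, 5, 9 and 10. Those with the highest −log10 p, 23.6 and 22.9, were at 130750083 to 130750176 (log2 fold 3.28, 86 IP reads over 16) and at 130747229 to 130747320 (log2 fold 4.18, 70 IP reads over 7). Replicate 1 had clusters at both places with log2 folds of 0.83 and 1.97, from 65 IP reads over 11 and 52 over 4.

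One ABL1 site was enriched in both replicates. It lay in bin 3, at 130753561 to 130753597 in replicate 1 (log2 fold 3.48, 37 IP reads over 1) and at 130753570 to 130753612 in replicate 2 (log2 fold 4.66, 14 IP reads over 1). It is not in the reproducible list, whose making is not described in the labels. The −log10 p values there were 3.07 and 5.28, the first being just above the threshold used. Further enriched clusters of replicate 2 were at 130798917 to 130798971 (log2 fold 3.66), 130868681 to 130868754 (4.44) and 130882779 to 130882841 (4.02), with 14, 12 and 9 IP reads over 2, 1 and 1 input reads. The values at 130739841 to 130739865 and at 130787123 to 130787210 were both 3.10, from 38 over 8 and 19 over 4. A long noncoding RNA gene of no stated strand, LOC124902288, lies within ABL1 from 130782668 to 130817460 and held 97 of the replicate 1 and 49 of the replicate 2 clusters, including 2 enriched ones of replicate 2, so those cannot be assigned to ABL1 alone. The ABL1 clusters next to the fold threshold were at 3.24 and 2.99 in replicate 1 and at 3.10 and 2.99 in replicate 2.

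NUP214 carried the reproducible peak with the highest log2 fold of the 3 genes. It was in bin 5, with a reproducible log2 fold of 5.31 and a −log10 p of 22.5 at chromosome 9 positions 131169358 to 131169434. In replicate 1 the cluster there had a log2 fold of 4.23 from 249 IP reads over 4 input reads, and in replicate 2 it had 6.39 from 232 IP reads over 5. Read numbers were close, and the fold was higher in replicate 2.

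The other 6 reproducible peaks lay together in bin 8, between 131209219 and 131209561, with reproducible log2 folds from 3.41 to 4.71. In replicate 1 this site was divided into 6 enriched clusters, the highest at 131209245 to 131209274 with a log2 fold of 5.15 from 237 IP reads over 2 input reads. The cluster at 131209219 to 131209244 had 4.39 from 209 IP reads over 3, and that at 131209332 to 131209387 had 4.04 from 274 over 5. In replicate 2 the site was divided into 4 enriched clusters, with log2 folds of 4.18 (150 IP reads over 15), 3.94 (68 over 8), 4.49 (124 over 10) and 3.44 (60 over 10). All 10 clusters were above the threshold, and input reads were higher in replicate 2. Merging touching peaks left 4 reproducible intervals in NUP214, namely the bin 5 peak and others that all lay within this bin 8 site. The 8 reproducible peaks of the 3 genes took 4 of their intervals from replicate 1 and 4 from replicate 2.

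**Figure D2:**
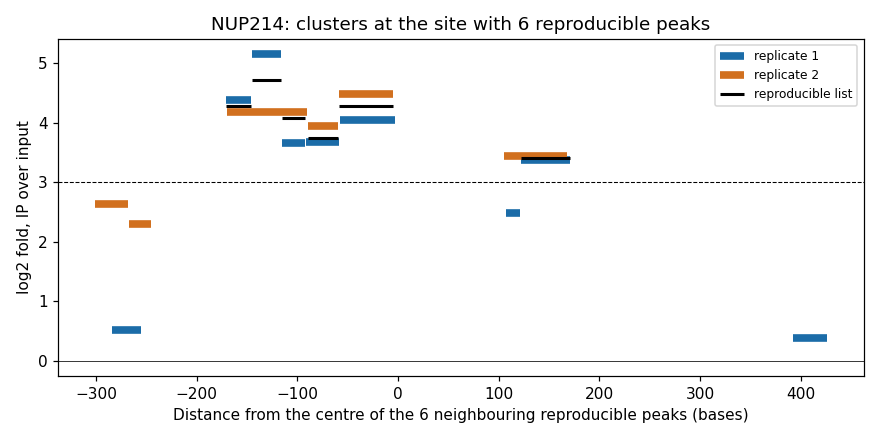
Clusters at the NUP214 site with 6 reproducible peaks, drawn as bars from start to end in bases from the site's centre (x axis) at their log2 fold of IP over input (y axis). Blue and orange bars are replicates 1 and 2, thin black bars the reproducible list, and the dashed line is log2 fold 3. All 6 reproducible peaks lie between 3.41 and 4.71.

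The NUP214 clusters enriched in 1 replicate had fewer IP reads, at most 72. In replicate 1 they were at 131146837 to 131146876 (log2 fold 3.62, 41 IP reads over 1) and 131202328 to 131202388 (3.44, 72 over 2), and replicate 2 had a cluster at 2.85 over the first and none over the second. Replicate 2 alone had 3 in bin 7, of which 131196323 to 131196385 was the highest (4.94, 34 IP reads over 2). It also had 3 in bin 10, at 131225257 to 131225329, 131231198 to 131231230 and 131231231 to 131231266, with 12, 12 and 13 IP reads over 1 input read each. Next to the fold threshold were clusters at 3.37 and 2.49 in replicate 1 and at 3.38 and 2.95 in replicate 2. Clusters on the opposite strand were rare, with 2 in replicate 1 and 1 in replicate 2 for NUP214 and none for BCR or ABL1.

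The read numbers were recovered from the authors' fold and p of each cluster, and all 43 enriched clusters of the 3 genes had a single solution. Of these, 13 rested on 1 input read, which may stand for 0 reads if the authors added 1 where input was empty. The numbers of IP reads ranged from 37 to 274 in replicate 1 and from 9 to 232 in replicate 2.

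**Figure D3:**
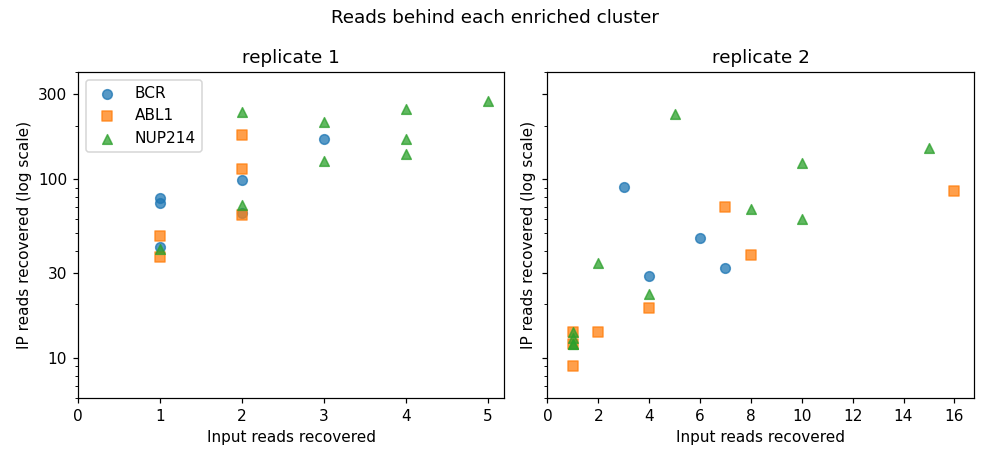
IP reads (y axis, log scale) against input reads (x axis) of each enriched cluster of BCR, ABL1 and NUP214, recovered from the authors' fold and p, for replicates 1 and 2. NUP214 holds the highest IP reads in both panels, 274 and 232, and replicate 2 reaches 16 input reads where replicate 1 reaches 5.

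Of the enriched clusters in replicate 1, 1 of 6 in BCR, 1 of 5 in ABL1 and 7 of 9 in NUP214 were overlapped by an enriched cluster of replicate 2. Together this was 9 of 20 (45.0%, exact 95% binomial interval 23.1 to 68.5), against 41.9% of all enriched clusters of replicate 1. In the other direction it was 1 of 4, 1 of 8 and 5 of 11, or 7 of 23 together (30.4%, interval 13.2 to 52.9), against 14.0%. The intervals treat clusters as independent, which they are not, so they may be too narrow even for counting error. Of the shared NUP214 clusters, 6 of the 7 in replicate 1 and 4 of the 5 in replicate 2 are parts of 1 site. Any cluster of replicate 2 overlapped 12 of the 20, against 64.0% over the whole list. Any cluster of replicate 1 overlapped 17 of the 23, against 88.4%, and these were all 4 of BCR, all 8 of ABL1 and 5 of 11 of NUP214. BCR and ABL1 thus each had 1 site enriched in both replicates. In NUP214 the shared clusters lay only at the bin 5 cluster and at the bin 8 site with 6 reproducible peaks. Its larger count of shared clusters thus follows mostly from the division of the bin 8 site.

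Across mutually best overlapping clusters, the median difference in log2 fold, replicate 2 minus replicate 1, was 0.20 over 57 pairs in BCR, 0.77 over 107 in ABL1 and 0.37 over 38 in NUP214. Pearson's r between the replicates was 0.62, 0.54 and 0.83, and Spearman's rho was 0.55, 0.55 and 0.75. These are descriptions across clusters of 1 gene, which share their libraries and gene copies and are not independent. Taking each gene's clusters as they stand, BCR had a median log2 fold of 0.49 in replicate 1 and 0.85 in replicate 2, ABL1 of 0.07 and 1.18, and NUP214 of 0.16 and 1.43. The whole lists had 0.07 and 1.85, so all 3 genes were below the replicate 2 median and BCR was the one furthest above that of replicate 1.

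The 3 genes were densely covered. Clusters per kb in replicate 1 were 1.56 in BCR, 1.95 in ABL1 and 1.88 in NUP214, against a median of 0.546 over 2152 protein-coding genes of like length with a cluster, and the genes ranked 92, 18 and 26 among them. In replicate 2 the densities were 0.611, 0.996 and 0.660 against a median of 0.0859, with ranks 126, 25 and 99. Clusters covered 8.42%, 10.5% and 11.1% of the spans in replicate 1 and 3.66%, 5.05% and 3.45% in replicate 2. Copy number and RNA level both enter such a density, and neither was analysed here.

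Clusters were not spread evenly along the genes. In BCR bin 1 held the most in replicate 1, 47 of 215, and bin 2 the most in replicate 2, 29 of 84. Bin 9 of BCR held 4 and 2, and bin 10 held none in either replicate. In ABL1 bin 1 held 2 of 340 clusters in replicate 1 and 12 of 174 in replicate 2, while bins 2 to 6 held between 47 and 58 each in replicate 1 and between 22 and 30 in replicate 2. Bin 8 of ABL1 was sparse in both replicates, with 10 and 9, and bin 9 held 19 in replicate 1 and 2 in replicate 2, the fewest of any ABL1 bin there. In NUP214 bin 8 held the most, 47 and 19, and bin 9 held 1 and 0, with 11 and 7 in bin 10. The 3′ end of BCR, the 5′ end of ABL1 and a stretch near the 3′ end of NUP214 were thus sparse in replicate 1. Over all 2689 protein-coding genes of like length, bin 1 held 14.0% of clusters in replicate 1 and 15.4% in replicate 2, bin 9 held 8.25% and 7.23%, and bin 10 held 9.84% and 7.03%.

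**Figure D4:**
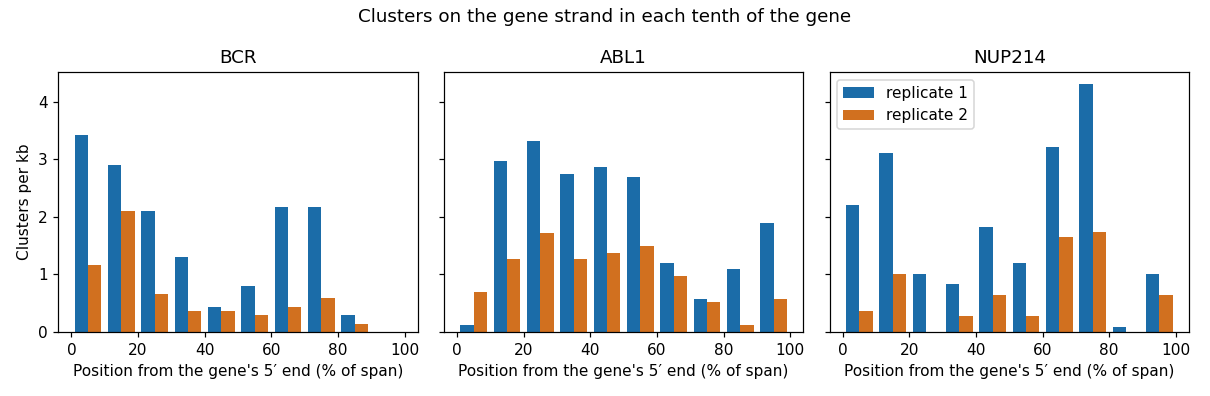
Clusters per kb (y axis) in 10 equal bins of BCR, ABL1 and NUP214, from the 5′ to the 3′ end in percent of the gene span (x axis), for replicates 1 and 2. BCR has no cluster in bin 10, ABL1 has 2 in bin 1 in replicate 1, and NUP214 has 1 and 0 in bin 9.

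To place these changes, the single step in density with the highest Poisson likelihood was found in each gene from the replicate 1 clusters, and replicate 2 was then read at the same place. In BCR the step lay at 80.0% of the gene. Replicate 1 had 211 clusters before it (1.92 per kb) and 4 after it (0.145 per kb), a ratio of 13.2, and replicate 2 had 82 and 2, a ratio of 10.3. The last cluster of the dense side in replicate 1 ended at 23290557, and the next began 8046 bases on, at 23298604. In replicate 2 the last ended at 23290465 and the next began at 23295930. Beyond the step the 4 clusters of replicate 1 had 12 to 27 IP reads, and the 2 of replicate 2 had 3 and 8. LOC107985554, a long noncoding RNA gene on the opposite strand, covers 11 of the replicate 1 clusters just before the step.

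In ABL1 the step lay at 10.9% of the gene and ran the other way. Replicate 1 had 2 clusters before it (0.105 per kb) and 338 after it (2.17 per kb), a ratio of 20.7. The last sparse cluster ended at 130727656 and the first dense one began at 130732049. Replicate 2 had 12 before (0.631 per kb) and 162 after (1.04 per kb), a ratio of 1.65, so the 5′ end was less sparse there. Those 12 clusters had a median log2 fold of 2.22, against 1.12 for the 162, and none was enriched. The 10 of them with recovered reads had 4 to 10 IP reads.

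In NUP214 the step lay at 78.6% of the gene, with 193 clusters before it (2.25 per kb) and 12 after it (0.515 per kb) in replicate 1, a ratio of 4.37. Replicate 2 had 65 and 7, a ratio of 2.53. The last dense cluster of replicate 1 ended at 131211360, beyond the site with 6 reproducible peaks. Between 131215273 and 131227800 replicate 1 had no cluster, while replicate 2 had the enriched one at 131225257 there. In all 3 genes the few clusters on the sparse side had higher median folds than those on the dense side, at 2.30 against 0.49 in BCR, 1.09 against 0.07 in ABL1 and 1.08 against 0.08 in NUP214 in replicate 1. In replicate 2 these medians were 3.15 against 0.85, 2.22 against 1.12 and 3.85 against 0.73. Of the 7 NUP214 clusters beyond the step there, 3 were enriched, each on 1 input read. Recovered input reads on the sparse side were 1 to 2 in BCR and ABL1 and 1 to 9 in NUP214 in replicate 1. In replicate 2 they were 1 in BCR, 1 to 4 in ABL1 and 1 to 13 in NUP214. Many of these folds thus rest on few reads, and the cause of the higher medians was not tested.

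Other genes had steps of this size too. Among 680 protein-coding genes of like length with at least 100 clusters in replicate 1, the median ratio across the best step was 2.52 and 13.4% had a ratio above 10. BCR ranked 88, ABL1 80 and NUP214 141 by that ratio. For these comparisons a small constant was added to each density, which makes the ratios slightly lower than those given above. By gain in Poisson log-likelihood, on which the step was chosen, the 3 genes ranked 67, 76 and 169. Their gains were 33.6, 31.1 and 19.2, against a median of 10.0. A step placed on replicate 2 alone fell elsewhere, at 23.0% of BCR, 67.1% of ABL1 and 58.4% of NUP214, so the positions above rest on replicate 1. The search gives every gene a best step, so the presence of one is not particular to the 3 genes. Whether the position or direction of these steps relates to the fusions was not tested, as junction positions were not used.

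Neighbouring genes were counted where the promoter table gives a strand, which leaves out GNAZ and RAB36 beside BCR. Of the 9 protein-coding genes counted within 500 kb of BCR, none had an enriched cluster in either replicate and 3 had any cluster in replicate 1. Of 11 such genes around ABL1, 8 had a cluster in replicate 1, while 2 had enriched clusters in replicate 1 and 4 in replicate 2. Of the 12 genes around NUP214, many of them the same, 9 had a cluster in replicate 1, and again 2 and 4 had enriched ones. These numbers are small, and over all genes with a cluster the shares with an enriched one were 14.9% and 42.7%. PRRC2B, an RNA-binding protein, had 3 in replicate 1, 10 in replicate 2 and 2 reproducible peaks. FUBP3, a single-strand nucleic acid binding protein, had 3 and 1, while EXOSC2, an RNA exosome subunit on the 5′ side of ABL1, had 0 and 4. RAPGEF1, a guanine nucleotide exchange factor downstream of CRK adaptors, had 0 and 4 as well. The density of PRRC2B in replicate 1 was 1.54 per kb, below that of all 3 members. CHCHD10, a short mitochondrial protein gene beside BCR named after its values were seen, was above all 3, at 2.81 per kb in replicate 1 and 1.40 in replicate 2, from 6 and 3 clusters.

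Genes of the pathways were counted from lists written from general knowledge. Of 40 genes of BCR-ABL signalling, the adaptors and kinase cascades through which the fusion kinase acts, 29 had a strand in the annotation, and of the 28 with a cluster in replicate 1, 8 had an enriched one, while 18 of 26 had one in replicate 2. The background shares are the 14.9% and 42.7% of genes given above, which include many shorter genes. The list's median of gene medians was 0.23 in replicate 1 and 1.59 in replicate 2. CRKL, an adaptor phosphorylated by the fusion kinase, and YES1, a Src family kinase, had 2 reproducible peaks each, with log2 folds of 3.33 to 3.93 and 3.37 to 3.98. AKT1, a serine/threonine kinase, had 18 enriched clusters in replicate 1 and 0 in replicate 2, and PIK3CA, a catalytic subunit of phosphoinositide 3-kinase, had 7 and 4. In replicate 2 the most were in PIK3CB with 30 and in ABL2, the paralogue of ABL1, with 24, against 5 and 5 in replicate 1. ABL2 had no reproducible peak, as ABL1 had none.

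Of 31 nuclear pore genes, 28 had a strand and a cluster, with enriched clusters in 11 in replicate 1 (39.3%) and 21 in replicate 2 (75.0%). The shares were 14.9% and 42.7% over all genes with a cluster in the replicate concerned. They were 24.3% and 51.7% over protein-coding genes of like length to the members with a cluster in either replicate. SEH1L, of the Y complex, had 4 reproducible peaks up to log2 4.46, NUP188, of the inner ring, had 3 up to 3.97, and NUP153, of the nuclear basket, had 2 up to 4.88. NUP98, itself a partner in leukaemia fusions, had 12 enriched clusters in replicate 1 and 15 in replicate 2 and no reproducible peak. NUP214, which is not counted in this list, had 7 reproducible peaks, or 4 once touching peaks were merged, with a highest log2 fold of 5.31. All of these but the bin 5 peak lay within the bin 8 site. The list's median of gene medians was 0.07 in replicate 1 and 2.02 in replicate 2, against 0.11 and 2.01 over all genes.

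Among 3534 genes with at least 10 clusters in each replicate, those nearest to each member in the median log2 folds of the 2 replicates were named. For BCR they were KIF18B, TMEM181 and GABBR1, at distances of 0, 0.03 and 0.03. For ABL1 they were MTRFR and SPRED2 at distance 0 and IARS1 at 0.02. For NUP214 they were MYH9 and TPGS2 at 0.01 and COMMD10 at 0.02. None of these 9 genes had a reproducible peak, and the likeness rests on 2 values per gene.

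The cell line label was checked on markers, since the protocols also mention HepG2, a liver line. Of the erythroid markers, 7 of 15 had a strand in the annotation, and the globin genes were not among these. All 7 had clusters in replicate 1, including TFRC, GATA1, KLF1 and ALAS2, and 6 had clusters in replicate 2, where KLF1 had none. Over all 27303 genes with a strand, 12246 had a cluster in replicate 1 and 8944 in replicate 2. Of the hepatocyte markers, 8 of 12 had a strand and 1, TF, had a single cluster in replicate 1, while ALB, AFP and SERPINA1 had none.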

How the data were processed

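The authors deposited 3 peak lists without headers: the clusters of each replicate and a combined list. Reads had passed through cutadapt 1.9 and STAR 2.4.0i, as the submitters' processing notes list them, with no peak caller or way of combining the replicates named. The authors' −log10 p of each cluster compares IP with input and stops at 400. The authors' log2 fold of each cluster is IP over input. Coordinates fit GRCh38, since clusters on chromosome 17 reached 83224967, and are given from 1. Gene spans and promoter windows (250 bases before to 50 after a start) came from RefSeq GRCh38.p14, and strands from the promoter table, so genes missing there were not counted.

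IP and input reads were recovered as whole numbers whose ratio gives the fold and whose two-sided binomial p (chi-square with continuity correction from 5 reads in both) matches the deposited p within 0.005. Relative depth follows from reading the most frequent fold as 3 IP reads to 1 input read, which is an assumption. This gave 1 solution for 634 of 690 member clusters with a −log10 p above 0 (91.9%). Library totals are unknown. The recovery and the step search were tested on simulated data. The simulated folds and p used the recovery's own p formula and assumed depth, so they cannot check either. The simulated steps, in a gene of BCR's length, had clusters placed evenly at random on each side, which real clusters need not follow. Named genes were the members, list genes with a reproducible peak or among the 2 with the most enriched clusters in a replicate, the 2 such neighbours, and the 3 nearest genes by median folds. The members and lists were chosen with earlier results of these data known, and lists were written from general knowledge. No p-value was computed here, and no test across the 2 replicates was made. Python 3.11.15, pandas 2.3.3 and scipy 1.17.1 were used.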

Additional observations from a re-analysis of the deposited data

How the results depend on the processing

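Counts moved with the thresholds. Enriched clusters of the 3 genes together, 20 in replicate 1 and 23 in replicate 2, became 39 and 59 at log2 fold 2, 9 and 13 at log2 fold 4, and 11 and 11 with a ratio denominator, in lowest terms, of at least 2. The denominator is not a read count, since 150 IP reads over 15 also reduce to a denominator of 1. Touching peaks merged left 5 of the 8 reproducible peaks. The 9 enriched clusters of replicate 1 shared with replicate 2 became 17 at log2 fold 2 in both, and the 7 in the other direction became 13, or 17 when any cluster counted. The share of enriched clusters, 3.94% over both replicates, ranged from 2.63% without replicate 2 to 6.97% without replicate 1. Over all clusters the share was 1.39% in replicate 1 and 12.8% in replicate 2, so the whole lists differ in the same direction. At log2 fold 2 the tenth with the most enriched clusters began at 0% of BCR instead of 10% and at 20% of ABL1 instead of 60%. With the step placed on replicate 2, the replicate 1 density ratio was 2.75 in BCR, 1.96 in ABL1 and 1.26 in NUP214 at the other position. For the changes under other thresholds the cause was not tested. The other 22 alternatives for these summaries left counts within 1.5 times, and other values within the spread between replicates. The step alternatives, and leaving out clusters with 1 input read, were chosen after seeing the data. No paired analysis was possible because the results are counts and deposited values that come from no test; each fold sets IP beside input within 1 replicate. Of the 43 enriched clusters, 13 rest on 1 input read, where depth limits the fold.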

Other observations

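XKR3, the chromosome 22 gene joined to NUP214 in K562, was examined after the values of the 3 genes were seen. It encodes a member of the XK family of membrane proteins and lies on the minus strand from 16783480 to 16825411 (41.9 kb). It held 66 clusters in replicate 1, of which 8 were enriched, and 34 in replicate 2, of which 9 were enriched, where 1.39% and 12.8% of all clusters were. Its densities were 1.57 and 0.81 clusters per kb, and the first cluster of either replicate began 6.48 kb from the 5′ end. The reproducible list held 8 peaks there, all between 16811149 and 16811283, with a median log2 fold of 5.74 and a highest of 6.54, above the highest of the 3 partner genes, 5.31. The highest clusters were at 5.56 in replicate 1 (16811159 to 16811166) and 7.05 in replicate 2 (16811146 to 16811208). In 5 equal bins of the gene from its 5′ end, replicate 1 clusters numbered 2, 13, 23, 15 and 13, and replicate 2 clusters 1, 11, 15, 6 and 1. Whether these reads come from RNA that joins NUP214 to XKR3 was not tested.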
